A study of Sus scrofa with 95 samples.

Results

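The 10 genes described here mark B cells and plasma cells, and their levels were measured in 5 organs of infant pigs. They were chosen by symbol from the 35670 rows of the gene table: CD22, CD79A, CD79B, MS4A1, PAX5, IGHM, JCHAIN, MZB1, TNFRSF17 and POU2AF1. All 10 symbols were found, each in 1 row.

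B cells carry an antigen receptor made of membrane immunoglobulin and a signalling pair of proteins, and they mature in follicles of lymphoid tissue, among them the Peyer's patches of the ileum. After activation some become plasma cells, which switch off much of the B cell program, enlarge the secretory pathway and release antibody; in the gut wall this is largely polymeric antibody that is carried across the epithelium. Liver, lung, kidney and heart hold B cells mainly in blood and in scattered immune infiltrates.

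By role, the members fall into 3 groups. CD79A and CD79B encode the signalling chains of the B cell receptor, CD22 an inhibitory co-receptor and MS4A1 the surface protein CD20. PAX5 encodes the transcription factor that keeps B cell identity and is switched off in plasma cells, while POU2AF1 encodes a coactivator of octamer-binding factors that is used in germinal centres and in plasma cells. IGHM encodes the constant part of the IgM heavy chain, JCHAIN the chain that joins IgM and IgA into polymers, MZB1 an endoplasmic reticulum protein that helps antibody assembly, and TNFRSF17 the survival receptor BCMA of plasma cells. IGHM sits in a locus of related constant-region genes, and how the authors' counting divided reads among them is not given in the sources used here.

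On the Sscrofa11.1 assembly, RefSeq places 9 of the 10 genes. CD22 lies on chromosome 6 at 44820593 to 44834392 and CD79A on the same chromosome at 49996116 to 49999294. CD79B lies on chromosome 12 at 15052966 to 15056441, PAX5 on chromosome 1 at 237574938 to 237785454, and POU2AF1 on chromosome 9 at 39121422 to 39144636. MS4A1, at 11216238 to 11229060, and MZB1, at 141277541 to 141279652, are both on chromosome 2. JCHAIN is on chromosome 8 at 67439405 to 67448628 and TNFRSF17 on chromosome 3 at 31137672 to 31141862. The values are counts over whole genes, with its exons summed.

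The study compared 3 arms of infant swine weighing 5 to 10 kg. In the linrodostat arm 4 animals had cardiopulmonary bypass with deep hypothermic circulatory arrest for 75 min and received 75 mg of linrodostat, an inhibitor of the tryptophan-degrading enzyme IDO1. The CPB arm held 7 animals with the same bypass and arrest and no drug, and the control arm 8 animals that had anesthesia without bypass. Each of the 19 animals gave 1 library from left ventricle, terminal ileum, kidney cortex, liver and right lower lung lobe, and animals are named here by arm and number. Replicates are separate animals. Kidney and ileum were taken before euthanasia and the other organs after it, and organs were drained of blood passively.

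Total counts, in units of 1000000, were 20.0 to 53.6 per library, and those of the heart were the lowest, at 20.0 to 27.2. All heart libraries came from batch 2 and all others from batch 1, so for the heart, batch and organ cannot be told apart. In heart, kidney, liver and lung the markers of the organ's own parenchyma stood above their level in every library of the other organs. The ileum of CPB animal 19 went against its label: FABP6, a bile acid binding protein of ileal enterocytes, was at 10.5 CPM there and at 1658 to 7191 CPM in the other 18 ilea, and sucrase-isomaltase (SI) was at 3.26 CPM against 447 to 3414 CPM. CDH17, an intestinal cadherin, was at 650 CPM in that library, within the range of the others. Levels are in CPM, the counts per 1000000 on each organ's own normalised scale. In bulk tissue, fewer cells of a type and less RNA per cell cannot be told apart.

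In control animals the ileum carried the highest median of all 10 genes, and the order below it was lung, liver, kidney and heart for most of them. The 8 controls of each organ were put on 1 common scale for this comparison, and values on that scale are named as such. MS4A1 had a median of 172 CPM on the common scale in control ileum, with a range of 6.06 to 303 CPM. In control lung its common-scale median was 7.04 CPM, and it was 2.75 CPM in liver and 0.190 CPM in kidney. The median in heart was 0 CPM, since 5 of 8 control hearts had no read. PAX5 had a common-scale median of 426 CPM in ileum, 8.30 CPM in lung, 3.69 CPM in liver, 0.484 CPM in kidney and 0.304 CPM in heart. The plasma cell genes were spread more evenly over the organs. JCHAIN had a common-scale median of 206 CPM in ileum, 73.0 CPM in lung, 23.6 CPM in liver, 16.1 CPM in kidney and 4.99 CPM in heart.

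Ileum exceeded lung by a log2 fold change of 5.35 ± 0.55 (SE) for PAX5 and 4.23 ± 0.51 for MS4A1, the steepest of the 10, and by 1.40 ± 0.32 for JCHAIN and 1.60 ± 0.39 for IGHM. Of 10 members, 9 passed an adjusted p of 0.05 in ileum against lung, where 61.3% of all genes passed in either direction and 32.7% were higher. TNFRSF17 was the one that did not pass, at 0.76 ± 0.41 (adjusted p = 0.10). In ileum against liver all 10 were higher, with 68.4% of all genes called and 35.7% called higher, and in ileum against heart all 10 again, with 71.8% called and 39.2% higher. In ileum against kidney 9 were higher, with 67.2% of all genes called and 33.1% higher, and TNFRSF17 was again the exception (0.40 ± 0.41, adjusted p = 0.39).

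Lung exceeded liver for 9 of 10 members, with 72.1% of all genes called and 37.6% higher, and POU2AF1 did not pass (0.53 ± 0.46, adjusted p = 0.31). Lung exceeded kidney for 9 members (58.9% of all genes called, 29.1% higher) and heart for 10 (68.2% called, 38.1% higher). In liver against kidney 8 members were higher (67.8% of all genes called, 34.4% higher) and TNFRSF17 was lower, at -2.41 ± 0.45 (33.5% of all genes lower). JCHAIN did not pass at 0.38 ± 0.32. Liver exceeded heart for 9 members (69.7% of all genes called, 37.9% higher), and CD22 did not pass at 0.99 ± 0.48 (adjusted p = 0.064). Between kidney and heart 3 members were called and 7 were not: IGHM, JCHAIN and TNFRSF17 were higher in kidney, with 61.9% of all genes called and 33.8% higher, and 5 were higher without control animal 14. TNFRSF17 departed from the order of the other genes, with a common-scale range of 0.844 to 6.05 CPM in control kidney and 0.180 to 0.783 CPM in control liver.

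**Figure D1:**
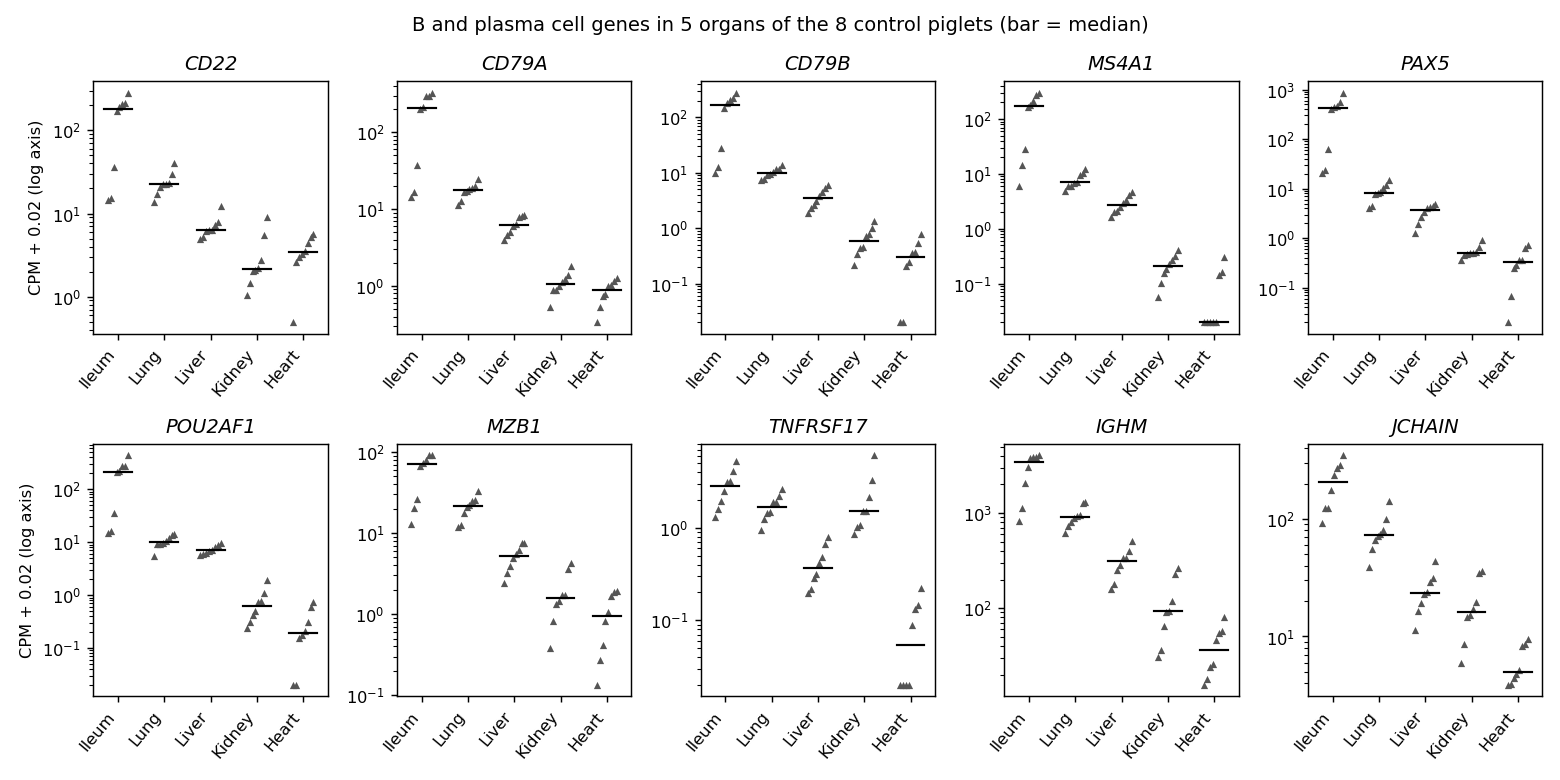
Levels of the 10 genes in 5 organs of the 8 control animals, in CPM on the common scale with 0.02 added, on a log axis; each triangle is 1 animal and the bar is the median. The ileum points of the B cell receptor genes and PAX5 split into 5 high and 3 low animals, while those of JCHAIN and TNFRSF17 spread evenly, and TNFRSF17 is lower in liver than in kidney.

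Within the ileum, the B cell genes split the 19 libraries in 2. CD22 was at 16.7 to 47.1 CPM in 7 libraries and at 195 to 478 CPM in the other 12, with nothing between. The 7 low libraries were those of linrodostat animals 12 and 18, CPB animals 2 and 19 and control animals 7, 13 and 14. They come from all 3 arms: 2 of 4 linrodostat, 2 of 7 CPB and 3 of 8 control animals. The same 7 libraries were the lowest for CD79A, where the gap ran from 48.7 to 262 CPM, and for CD79B, where it ran from 36.8 to 199 CPM. They were also the lowest for MS4A1 (36.4 to 228 CPM) and POU2AF1 (46.1 to 202 CPM), so all 5 of these genes drew the same line through the animals. In PAX5 the 7 were again the lowest, but the widest gap on the log scale was inside them: CPB animal 19 had 1.96 CPM, and the next library, control animal 13, 26.5 CPM.

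Spread differed between the members. From the lowest to the highest ileum, PAX5 varied 633-fold, MS4A1 235-fold, CD79B 154-fold, CD79A 64.2-fold, POU2AF1 39.4-fold and CD22 28.6-fold. The low end of these 6 ranges was CPB animal 19, the library that went against its label, and the percentiles below include it. In the next lowest ileum, control animal 13, PAX5 was at 26.5 CPM and MS4A1 at 7.90 CPM. CD79B was at 12.6 CPM and CD79A at 18.9 CPM there. The highest ilea had 1238 CPM of PAX5 and 510 CPM of MS4A1. The 4 antibody and plasma cell genes varied far less: MZB1 10.2-fold, IGHM 6.69-fold, JCHAIN 6.27-fold and TNFRSF17 5.58-fold. Among the 17869 genes tested in ileum, the standard deviation of log2 CPM put PAX5 at percentile 99.6, MS4A1 at 99.4, CD79B at 99.1, CD79A at 98.5, POU2AF1 at 98.0 and CD22 at 97.4. The same measure put MZB1 at percentile 80.1, IGHM at 74.6, JCHAIN at 61.6 and TNFRSF17 at 57.2. For MZB1 the 7 libraries were still the lowest, at 16.8 to 42.8 CPM, but the next began at 73.4 CPM, a gap of 1.72-fold. The 7 were the lowest for IGHM too, at 1063 to 2929 CPM, and the next library had 3568 CPM. The order of the libraries broke down for JCHAIN, whose 6 lowest ilea included control animals 4 and 10, both high in CD22.

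CPB animal 19, the library low in FABP6 and SI, was the lowest of 19 for 6 members: CD22, CD79A, CD79B, MS4A1, PAX5 and POU2AF1. Its JCHAIN level of 652 CPM was nonetheless above that of 17 other libraries, and its IGHM level was 2929 CPM. Control animal 14 was lowest for JCHAIN (120 CPM), MZB1 (16.8 CPM) and TNFRSF17 (1.67 CPM). At the other end, linrodostat animal 24 was highest for 5 members, among them CD79B at 652 CPM and MS4A1 at 510 CPM. Markers of other cell types moved with this split. The summed level of 11 T cell genes was 377 to 597 CPM in the 7 libraries low in CD22 and 646 to 1256 CPM in the other 12, without overlap. The summed level of 8 smooth muscle genes was 2918 to 32538 CPM in the 7 and 305 to 6658 CPM in the 12, and linrodostat animal 24 had the lowest sum, 305 CPM. The summed level of 8 enterocyte genes was 1129 CPM in CPB animal 19, 15766 to 22046 CPM in the rest of the 7 and 2964 to 10657 CPM in the 12. That of 8 NK and cytotoxic genes was 165 CPM in CPB animal 19, 370 to 606 CPM in the rest of the 7 and 110 to 344 CPM in the 12. The part that the makeup of the tissue piece played in the split was not tested.

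**Figure D2:**
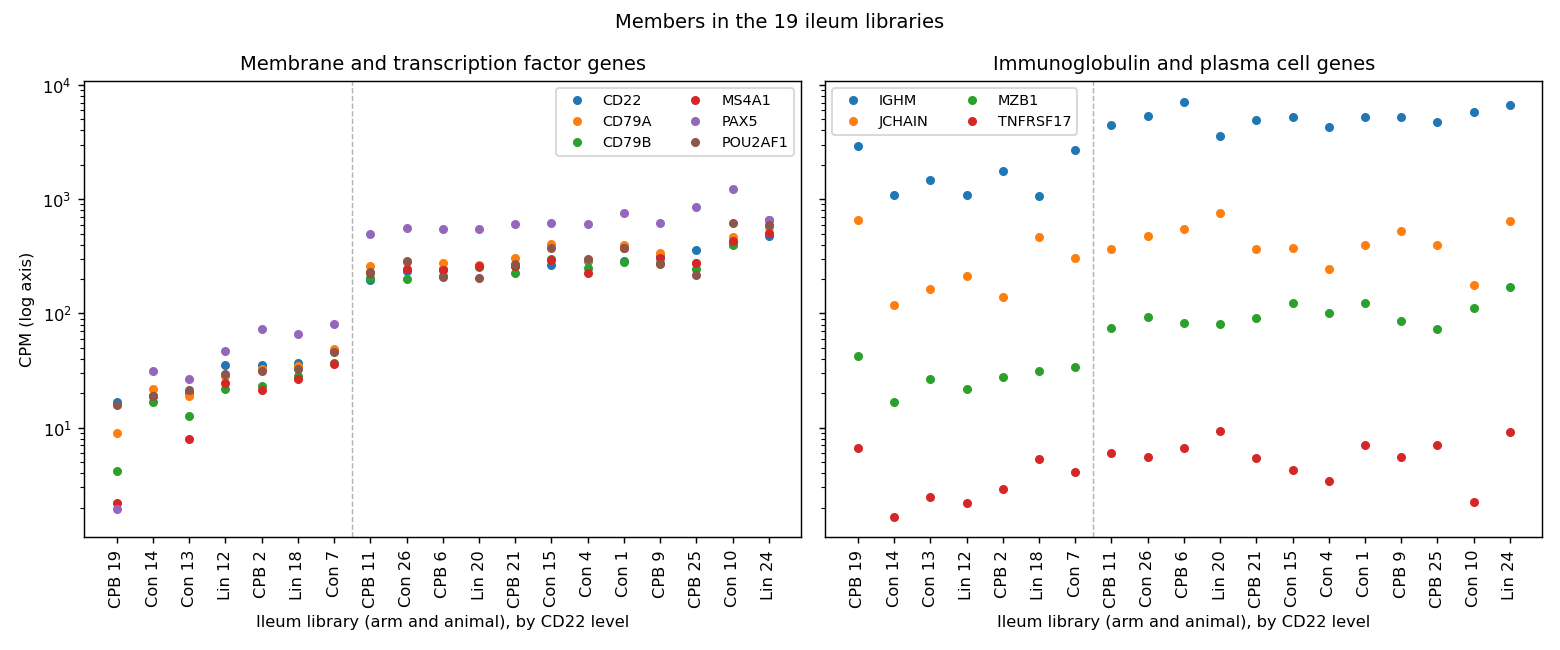
Levels of the members in the 19 ileum libraries, in CPM on a log axis, with libraries (Lin, linrodostat; Con, control) ordered from left to right by CD22; the dashed line stands between the 7 lowest and the 12 others. The 6 genes on the left step up together at the line, to 195 CPM and above, whereas JCHAIN and TNFRSF17 on the right overlap across it.

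Genes whose pattern over the 19 ilea was most like the members' were ranked by Pearson's r with the mean of the standardised member values, after arm means were taken out. The 10 highest non-members were HVCN1, ZC3H12D, KBTBD8, LY9, TNFAIP8, EAF2, BTK, C1orf94, TLR10 and LY86. BTK encodes the kinase downstream of the B cell receptor, HVCN1 a proton channel, LY9 a SLAM family receptor, and LY86 the partner of CD180. Since the libraries form 2 clusters, r is given inside each: for these genes it was 0.64 to 0.89 over the 12 libraries high in CD22 and 0.75 to 0.95 over the 7 low ones. The 5 genes with the lowest r were ITFG1, CC2D1A, BACE1, L1CAM and MINDY1, with r of -0.88 to -0.72 over the 12 and -0.69 to -0.52 over the 7. Within the 12 libraries the members were not equally close to their own mean, with r of 0.89 for IGHM, 0.87 for MZB1 and 0.82 for CD79A, but 0.17 for PAX5. Each member is part of that mean, which raises its r, so these values cannot be set beside those of non-members. Over all 19 ilea the T cell genes had r from -0.007 for CD8B to 0.93 for LCK, so not all of them followed the members.

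No member was called between arms in the ileum. In CPB against control, 0 of 10 members and 0 of 17869 genes passed (0% called), and 0 members reached an unadjusted p of 0.05. Levels of CD22 were 16.7, 245 and 361 CPM (lowest, median, highest) in CPB ilea and 19.1, 249 and 405 CPM in control ilea, and the fold change was 0.06 ± 0.75 on the log2 scale. With so wide a spread its 95% interval ran from -1.40 to 1.53, and that of PAX5 from -1.87 to 1.69. JCHAIN was at 140, 393 and 652 CPM in CPB ilea and 120, 275 and 478 CPM in control ilea (0.61 ± 0.34). Linrodostat against CPB gave 0 calls among 10 members and 0% of all genes, and linrodostat against control 0 among 10 with 0.213% of all genes called. JCHAIN had 213, 470, 751 and 644 CPM in linrodostat animals 12, 18, 20 and 24, a log2 fold change of 0.88 ± 0.39 over control (adjusted p = 0.31). It was the 1 member with an unadjusted p under 0.05 in that comparison, and linrodostat against CPB had 0 such members. DESeq2 and limma-voom also called 0 members in all 3 ileum comparisons. Without CPB animal 19 edgeR again called 0 members in each.

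The liver had the most changes. In CPB livers the genes of the B cell surface and PAX5 were lower than in control livers, by log2 fold changes of -1.46 to -1.04. POU2AF1 and the antibody and plasma cell genes were not called. Of 10 members 5 were lower and 0 higher, against 26.9% of all 15406 genes called and 11.3% called lower. The median log2 fold change of the 10 was -0.64, and that of all genes tested -0.03.

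CD22 was at 0.372, 1.08 and 2.82 CPM (lowest, median, highest) in CPB livers and 2.70, 3.41 and 6.20 CPM in control livers. Only CPB animal 19, the highest of its arm, reached into the control range. The log2 fold change was -1.46 ± 0.34 (adjusted p = 0.0047). CD79A was at 0.922, 1.45 and 2.31 CPM in CPB livers and 2.17, 3.33 and 4.56 CPM in control livers, a change of -1.11 ± 0.26 (adjusted p = 0.0050). Its partner CD79B was at 0.190, 1.15 and 1.34 CPM in CPB livers and 1.01, 1.88 and 3.24 CPM in control livers (-1.04 ± 0.34, adjusted p = 0.027). The arms overlapped for both chains, and CD79B lost its call without control animal 14 or CPB animal 21.

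MS4A1 had 0.190, 0.781 and 1.14 CPM in CPB livers and 0.826, 1.51 and 2.56 CPM in control livers (-1.22 ± 0.38, adjusted p = 0.023). PAX5 had 0.405, 0.697 and 1.21 CPM in CPB livers and 0.625, 1.97 and 2.68 CPM in control livers (-1.16 ± 0.35, adjusted p = 0.018). These are small numbers of reads: the lowest CPB liver had 7 counts of MS4A1 and 12 of PAX5. CPB animal 11 was the lowest of all 19 livers for 4 members and CPB animal 2 for 3. Control animal 1 had the highest CD22 of the control livers, 6.20 CPM. It was the lowest control liver for MS4A1 (0.826 CPM) and PAX5 (0.625 CPM).

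The other 5 members had log2 fold changes near 0 in the same livers. IGHM was at 79.7, 140 and 228 CPM in CPB livers and 85.8, 169 and 278 CPM in control livers (-0.23 ± 0.27, adjusted p = 0.54). JCHAIN was at 9.87, 12.8 and 29.5 CPM in CPB livers and 6.07, 12.7 and 23.8 CPM in control livers (0.21 ± 0.29, adjusted p = 0.62). Their arms overlapped almost whole. MZB1 was at 0.02 ± 0.28, POU2AF1 at -0.05 ± 0.20 and TNFRSF17, with no more than 18 counts in any liver, at 0.12 ± 0.41. A difference between the B cell genes and the plasma cell genes was not tested.

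Of other B cell pathway genes, taken from lists, some were lower in the same livers; the share of all genes called lower there was 11.3%. Of 16 genes of B cell receptor signalling and the B cell surface, 10 were lower in CPB than in control livers and 0 higher, with a median log2 fold change of -0.84. FCMR, the receptor for IgM, fell by 1.58 on the log2 scale (SE 0.28, adjusted p = 0.00076) and BLK, a kinase of the Src family, by 1.31 (SE 0.42, adjusted p = 0.027). Of the not-called genes, PIK3AP1 was at -0.19 ± 0.24 and LYN at 0.02 ± 0.15; both are used by myeloid cells as well. Of 11 transcription factors of the B lineage 7 were lower, led by POU2F2 (-1.61 ± 0.32), SPIB (-1.16 ± 0.29) and IKZF3 (-1.13 ± 0.34), while TCF3 (-0.11 ± 0.14) and BACH2 (0.78 ± 0.34) were not called. Of 9 germinal centre and follicle genes tested 1 was lower, the cytokine gene LTB (-0.84 ± 0.26), a share close to that of all genes.

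The plasma cell and secretion list was mixed: of 16 genes 3 were higher and 4 lower in CPB livers, with a median of -0.18. Of all genes, 26.9% were called there in either direction and 11.3% were called lower. The 4 lower genes were CD27 (-1.33 ± 0.30), a receptor shared with T cells, CD38 (-0.88 ± 0.31), TNFSF13B (-0.79 ± 0.24), the cytokine BAFF, and PRDM1 (-0.72 ± 0.23), the factor that drives plasma cell fate. The 3 higher genes were SDC1 (1.19 ± 0.39), a surface proteoglycan of plasma cells that hepatocytes carry too, FKBP11 (0.58 ± 0.13), an endoplasmic reticulum folding enzyme, and SEC11C (0.54 ± 0.18), a subunit of the signal peptidase. XBP1 (-0.12 ± 0.15) and TXNDC5 (-0.04 ± 0.10) were not called.

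Markers of other immune cells moved in the same livers, where 26.9% of all genes were called and 11.3% were called lower. Of 11 T cell genes 5 were lower, among them CD2 (-1.44 ± 0.42), and the summed T cell level was 27.3 to 95.7 CPM in CPB livers and 71.4 to 169 CPM in control livers. NK and cytotoxic genes were lower for 2 of 8, and monocyte and macrophage genes for 6 of 11, led by SIGLEC1 (-1.38 ± 0.25). The summed macrophage level was 1435 to 1869 CPM in CPB livers and 1447 to 2922 CPM in control livers. Neutrophil genes were higher for 3 of 5, with MMP8 at 2.98 ± 0.88. The part of a general change in blood and immune cells in the B cell result was not tested.

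**Figure D3:**
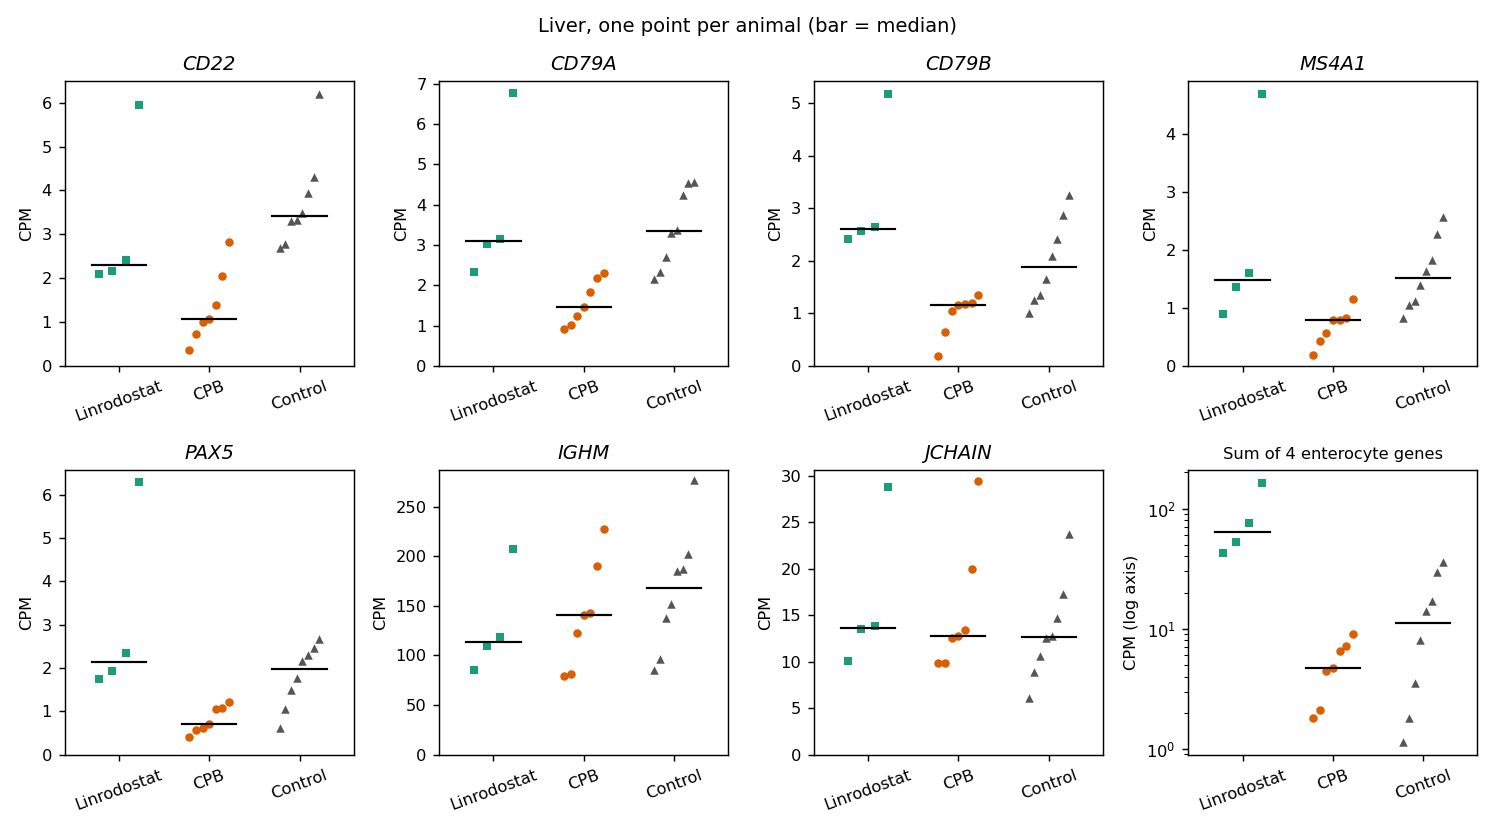
Levels in liver of 5 B cell genes, of IGHM and JCHAIN, and of the sum of 4 enterocyte genes, in CPM (log axis for the sum only), with 1 point per animal and the median as a bar. For the 5 B cell genes the CPB points lie lowest, while for IGHM and JCHAIN the arms overlap, and linrodostat animal 18 is the top square in each panel.

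Linrodostat livers carried more PAX5 and CD79B than CPB livers. PAX5 was at 1.93, 6.29, 1.75 and 2.34 CPM in linrodostat animals 12, 18, 20 and 24, and at 0.405, 0.697 and 1.21 CPM (lowest, median, highest) in CPB livers, a log2 fold change of 1.92 ± 0.40 (adjusted p = 0.022). CD79B was at 2.41, 5.17, 2.64 and 2.56 CPM in those linrodostat livers and 0.190, 1.15 and 1.34 CPM in CPB livers (1.73 ± 0.39, adjusted p = 0.038). The arms did not overlap for either gene, nor for CD79A, which had 3.03, 6.77, 3.16 and 2.34 CPM in linrodostat livers (1.28 ± 0.31, adjusted p = 0.054). Such separation upward was seen in 1.51% of all genes. MS4A1 (1.65 ± 0.43, adjusted p = 0.10) and CD22 (1.21 ± 0.40, adjusted p = 0.29) were not called. The 2 calls among 10 members stand against 0.772% of all genes called and 0.759% called higher. The median log2 fold change was 0.86 for the members and -0.01 for all genes.

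Both calls depended on single animals. Linrodostat animal 18 was the highest of 19 livers for 7 members, and without it PAX5 was at 1.31 ± 0.38 (adjusted p = 0.27) and CD79B at 1.40 ± 0.41 (adjusted p = 0.28), with 0 members and 1 of all genes called. The count of called members was also 0 without CPB animal 6, 11 or 21, and 1 without CPB animal 2, CPB animal 25 or linrodostat animal 20. In linrodostat against control livers 0 of 10 members were called by edgeR, DESeq2 or limma-voom and 0 had an unadjusted p under 0.05, with 21.8% of all genes called. PAX5 was at 0.76 ± 0.38 (adjusted p = 0.16) there and CD22 at -0.25 ± 0.39 (adjusted p = 0.69).

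Some transcripts of the gut lining were also higher in these livers, where 0.759% of all genes were called higher than in CPB livers. Of 8 enterocyte genes 4 were higher in linrodostat than in CPB livers: SI (4.13 ± 0.76), FABP6 (4.03 ± 0.76), CDH17 (4.02 ± 0.69) and FABP2 (3.85 ± 0.85). APOA4 (0.04 ± 1.11) and ANPEP (0.78 ± 0.32) were not called. FABP6, SI, SLC10A2 and CDH17 each had in control liver 0.0898 to 0.236% of its control ileum median, with each organ on its own scale. Their sum was 52.8, 164, 42.6 and 75.5 CPM in linrodostat animals 12, 18, 20 and 24. It was 1.80, 4.76 and 9.00 CPM in CPB livers and 1.15, 11.1 and 36.0 CPM in control livers. The highest sum was that of linrodostat animal 18, the animal highest for 7 members. Its own ileum was among those low in CD22. PAX5 was at 47.0, 66.2, 546 and 651 CPM in the ilea of linrodostat animals 12, 18, 20 and 24. In their livers it was at 1.93, 6.29, 1.75 and 2.34 CPM, in the same order. For the members themselves, the common-scale control medians of PAX5 were 3.69 CPM in liver and 426 CPM in ileum. In the same order they were 2.75 and 172 CPM for MS4A1, 3.47 and 164 CPM for CD79B and 6.17 and 208 CPM for CD79A. For IGHM they were 313 and 3449 CPM, for JCHAIN 23.6 and 206 CPM, for MZB1 5.25 and 70.4 CPM and for TNFRSF17 0.350 and 2.81 CPM. The percentages of the gut genes are not on that scale.

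A further fit, chosen after the data were seen, took the log2 of that sum as a covariate. It called 4 members lower in CPB than in control livers: CD22 (-1.40), CD79A (-0.97), MS4A1 (-1.12) and PAX5 (-1.03). CD79B was not called (-0.79, adjusted p = 0.051). For linrodostat against CPB the same fit called 0 members and 0 of all genes, with PAX5 at 1.09 and CD79B at 0.50. No member's own slope on the covariate passed in that fit. The lowest adjusted p of a slope was 0.43, for CD79B (0.33 ± 0.11), and PAX5 had 0.21 ± 0.13 (adjusted p = 0.89). The sums of the linrodostat and CPB livers did not overlap, so in that comparison the arm and the level of gut transcripts cannot be told apart. For CPB against control, the part of gut transcripts cannot be read from a fit in which no member's slope passed.

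In the lung CD22 was the clearest change. It was at 11.1, 16.6 and 19.7 CPM (lowest, median, highest) in CPB lungs and 19.9, 32.0 and 58.5 CPM in control lungs. The arms did not overlap, as for 0.375% of all genes downward, and the log2 fold change was -1.03 ± 0.18 (adjusted p = 0.0053). PAX5 was at 2.37, 4.30 and 12.6 CPM in CPB lungs and 5.69, 11.8 and 21.1 CPM in control lungs (-1.22 ± 0.32, adjusted p = 0.035). CD79A was at 8.52, 14.8 and 24.1 CPM in CPB lungs and 16.1, 25.3 and 34.4 CPM in control lungs (-0.74 ± 0.20, adjusted p = 0.042). Both arms overlapped for these 2 genes, and their calls were the less steady ones. PAX5 lost its call when any 1 of 9 animals was left out and CD79A when any 1 of 13 was, while CD22 kept its call in all 19 cases. The CD22 arms lay close at their edges, with 19.7 CPM in CPB animal 6 and 19.9 CPM in control animal 4. Other members did not follow CD22 in every lung. Control animal 1 had the highest CD22 of the control lungs, 58.5 CPM. It was the lowest control lung for PAX5 (5.69 CPM), CD79A (16.1 CPM) and MS4A1 (7.04 CPM).

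With 3 of 10 members lower and 0 higher, 4.71% of all genes were called in the lung and 2.62% were called lower, and the median log2 fold change was -0.34 for the members and 0.01 for all genes. MS4A1 (-0.60 ± 0.25, adjusted p = 0.15) and CD79B (-0.52 ± 0.25, adjusted p = 0.23) were not called. CPB animal 21 was the lowest lung for 4 members and CPB animal 19 for 3, while control animal 10 and CPB animal 6 were each the highest for 3. The antibody genes were not called: IGHM was at 409, 1380 and 2461 CPM in CPB lungs and 860, 1306 and 1860 CPM in control lungs (0.05 ± 0.30), JCHAIN was at 0.29 ± 0.27 and MZB1 at 0.14 ± 0.26. TNFRSF17 was at 0.45 ± 0.30 and POU2AF1 at -0.15 ± 0.28.

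Of 16 B cell receptor and surface genes 9 were lower in CPB than in control lungs and 7 were not called, with a median of -0.67, where 2.62% of all genes were called lower. BANK1, a scaffold of B cell receptor signalling, was at -1.68 ± 0.28 (adjusted p = 0.0033), CD180 at -1.35 ± 0.33 and BLK at -0.98 ± 0.23, and LYN (-0.33 ± 0.10) and CIITA (-0.43 ± 0.21) were not called. Of 11 transcription factors 3 were lower, POU2F2 (-1.51 ± 0.27), IKZF1 (-0.97 ± 0.20) and ETS1 (-0.47 ± 0.12). Of 16 plasma cell and secretion genes 2 were lower, CD38 (-1.03 ± 0.24) and PRDM1 (-0.72 ± 0.16), and of 10 germinal centre genes 0. T cell genes were called for 0 of 11 with a median of -0.79, and 7 of 11 macrophage genes were lower, led by TIMD4 (-1.37 ± 0.20). The summed macrophage level was 4008 to 8359 CPM in CPB lungs and 7945 to 13891 CPM in control lungs. Its part in the lung result was not tested.

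In linrodostat lungs CD22 was low as well. It was at 16.1, 18.8, 19.4 and 18.4 CPM in linrodostat animals 12, 18, 20 and 24, below every control lung, and its log2 fold change over control was -0.90 ± 0.22 (adjusted p = 0.039), the 1 call among 10 members with 2.35% of all genes called and 1.28% called lower. Such separation from the controls was seen downward in 2.11% of all genes. The call of CD22 was lost in 7 of 19 cases when 1 animal was left out. In linrodostat against CPB 0 of 10 members and 0% of all genes were called, 0 members had an unadjusted p under 0.05, and DESeq2 and limma-voom called 0 members. CD22 was at 0.14 ± 0.22 and PAX5 at 0.67 ± 0.37. Kidney tubule transcripts, summed over 6 genes, reached 71.9 and 63.9 CPM in the lungs of CPB animals 19 and 25 and 37.4 CPM in linrodostat animal 20, against 1.26 to 2.97 CPM in control lungs. Those 2 CPB lungs were left out in a further fit, chosen after the data were seen. In it CD22 was at -1.08 (adjusted p = 0.027), and PAX5 (-1.18, adjusted p = 0.13) and CD79A (-0.64, adjusted p = 0.16) were not called. The PAX5 and CD79A calls were also lost when other single animals were left out. The part of kidney transcripts in these calls was not tested.

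**Figure D4:**
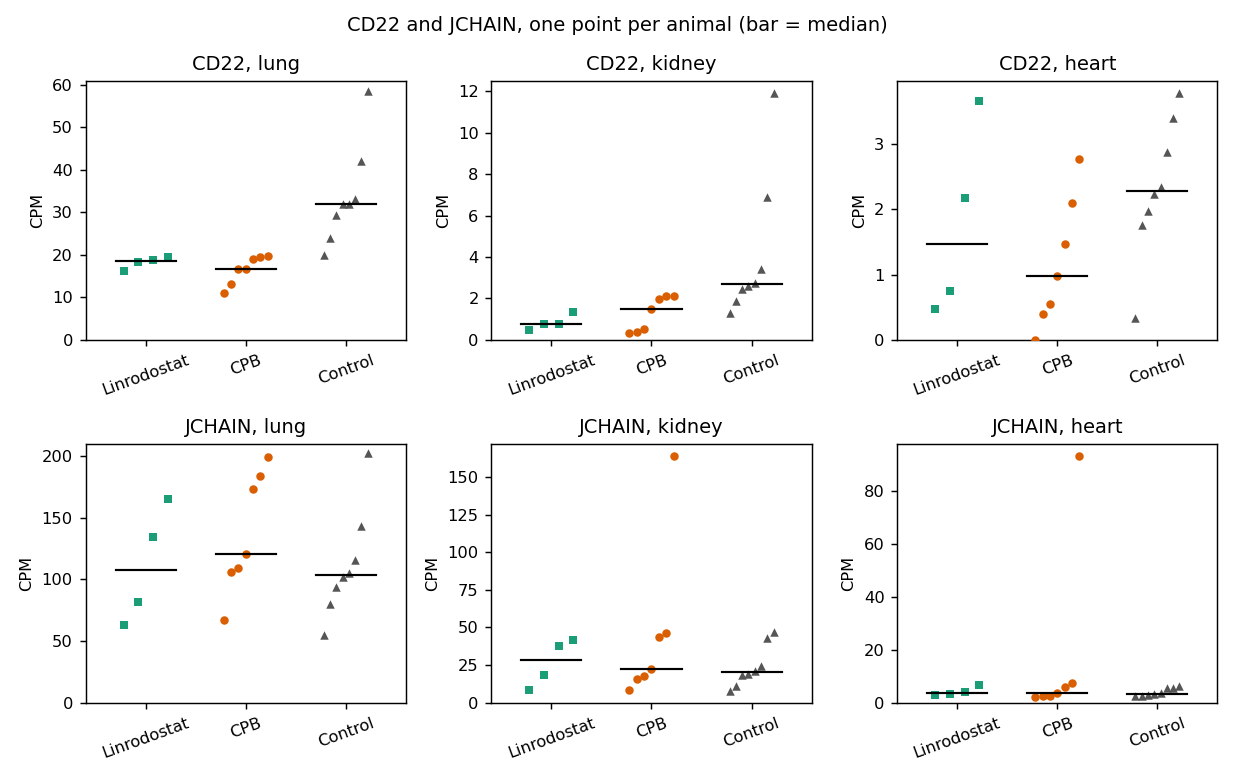
CD22 (top) and JCHAIN (bottom) in lung, kidney and heart, in CPM, with 1 point per animal and the median as a bar. The CPB and linrodostat points of CD22 in lung all lie below the control points; JCHAIN in kidney and heart shows 1 CPB point, animal 11, at 164 and 93.3 CPM, above all others.

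In the kidney CD22 was the only member called between CPB and control, and it was lower in CPB. It was at 0.356, 1.50 and 2.11 CPM in CPB kidneys and 1.32, 2.68 and 11.9 CPM in control kidneys, a log2 fold change of -1.70 ± 0.51 (adjusted p = 0.023). This was 1 call among 10 members, with 21.1% of all genes called and 9.86% called lower, so the count of members was no more than the share of all genes. The spread of the controls was wide, and without control animal 15, the highest at 11.9 CPM, CD22 was at -1.26 (adjusted p = 0.054). That kidney was also the highest control for other immune cells: its summed T cell level was 420 CPM (control median 87.2), its NK and cytotoxic level 481 CPM (control median 49.3) and its macrophage level 2338 CPM (control median 543). The part of these cells in its CD22 level was not tested. Other members were mixed in that kidney. It was the lowest control for MS4A1 (0.0491 CPM) and PAX5 (0.441 CPM), and the highest control for IGHM (342 CPM) and JCHAIN (46.7 CPM). In linrodostat kidneys CD22 was at 0.784, 1.35, 0.754 and 0.478 CPM in animals 12, 18, 20 and 24 (-2.31 ± 0.66 over control, adjusted p = 0.018), the 1 call among 10 with 20.0% of all genes called and 8.27% called lower. The share of members called lower was near that of all genes here too. The linrodostat call of CD22 was lost without linrodostat animal 12 or 20. Linrodostat against CPB gave 0 calls among 10 members and 0% of all genes, 0 at an unadjusted p under 0.05 and 0 by DESeq2 or limma-voom, with CD22 at -0.61 ± 0.62.

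TNFRSF17 lay on the other side in the kidney. It was at 2.08, 6.19 and 9.82 CPM in CPB kidneys and 1.06, 1.93 and 7.39 CPM in control kidneys, and the log2 fold change of 1.08 ± 0.42 did not pass (adjusted p = 0.069). In linrodostat kidneys it was at 6.53, 9.98, 4.24 and 2.29 CPM (1.08 ± 0.48 over control, adjusted p = 0.12). The other antibody and plasma cell genes in CPB against control kidneys were JCHAIN (0.93 ± 0.56), MZB1 (0.84 ± 0.56) and IGHM (-0.16 ± 0.48). CD79A (0.06 ± 0.41), CD79B (-0.40 ± 0.47), MS4A1 (0.50 ± 0.65), PAX5 (-0.14 ± 0.34) and POU2AF1 (0.29 ± 0.50) were not called. The members' median was 0.18 and that of all genes -0.03.

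In CPB against control kidneys 21.1% of all genes were called and 9.86% were called lower. Among the listed pathway genes there, 4 of 16 B cell receptor and surface genes were lower in CPB kidneys. They were CD180 (-1.67 ± 0.46), BANK1 (-1.11 ± 0.33), BLNK (-1.04 ± 0.20) and CIITA (-0.85 ± 0.21). LYN (0.32 ± 0.18) and PLCG2 (-0.14 ± 0.13) were not called. POU2F2 (-1.54 ± 0.37) and BCL11A (-0.97 ± 0.23) were the 2 of 11 transcription factors that were lower. Of 16 plasma cell and secretion genes 2 were higher, FKBP11 (0.68 ± 0.18) and DERL3 (0.61 ± 0.17), and 2 lower, PRDM1 (-0.76 ± 0.19) and PIGR (-0.71 ± 0.21), the receptor that carries polymeric antibody across epithelium. The share called lower in that list was close to that of all genes. Macrophage genes were lower for 6 of 11, led by SIGLEC1 (-2.76 ± 0.70), T cell genes were called for 0 of 11, and smooth muscle genes were lower for 5 of 8. Their part in the CD22 result was not tested.

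Heart tissue held few reads of these genes. Of the 10, 5 passed the filter on low counts: CD22, CD79A, IGHM, JCHAIN and MZB1. The heart of CPB animal 11 stood apart, being the highest of 19 for 8 members. Its JCHAIN level was 93.3 CPM, where the next CPB heart had 7.32 CPM and the control hearts 2.62, 3.41 and 6.26 CPM (lowest, median, highest). Its MZB1 level was 18.9 CPM, against 1.32 CPM in the next CPB heart, and IGHM reached 124 CPM. TNFRSF17 was counted in that CPB heart alone (18 reads, 0.683 CPM), in 0 of the 4 linrodostat hearts and in 4 of 8 control hearts at up to 0.133 CPM.

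In CPB against control hearts 0 of 5 tested members were called by edgeR, DESeq2 or limma-voom, with 11.9% of all genes called, and 1 member, JCHAIN, had an unadjusted p under 0.05. JCHAIN was at 2.05 ± 0.73 (adjusted p = 0.075) with that animal and at -0.02 ± 0.31 (adjusted p = 0.97) without it, and MZB1 was at 2.16 ± 1.04 with it and -0.91 ± 0.76 without it. CD22 was at 0, 0.970 and 2.77 CPM in CPB hearts and 0.328, 2.28 and 3.77 CPM in control hearts (-0.98 ± 0.60, adjusted p = 0.30; without animal 11, -1.35 ± 0.62, adjusted p = 0.17). Linrodostat hearts had CD22 at 2.18, 3.66, 0.742 and 0.466 CPM, and 0 of 5 members were called against CPB (0% of all genes) and 0 against control (2.04% of all genes).

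The same animal was high in another organ. The kidney of CPB animal 11 was the highest of 19 for 6 members, with JCHAIN at 164 CPM where the next CPB kidney had 46.1 CPM, and CD79A at 4.72 CPM where the next had 1.06 CPM. Its liver, in contrast, was the lowest of 19 for 4 members, and its lung and ileum were highest or lowest for 0 members. Summed T cell genes in that heart, 75.7 CPM, ranked 3 of 19, and summed macrophage genes, 854 CPM, also ranked 3. The heart muscle sum of 47636 CPM ranked 18 of 19. Without this animal in kidney JCHAIN was at 0.10 ± 0.45 and CD22 at -1.87 ± 0.54 in CPB against control (adjusted p = 0.021). CPB animal 21 was the lowest of 19 for 4 members in lung and for 4 in kidney, and linrodostat animal 24, the highest in ileum, was the lowest in kidney for 3.

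**Figure D5:**
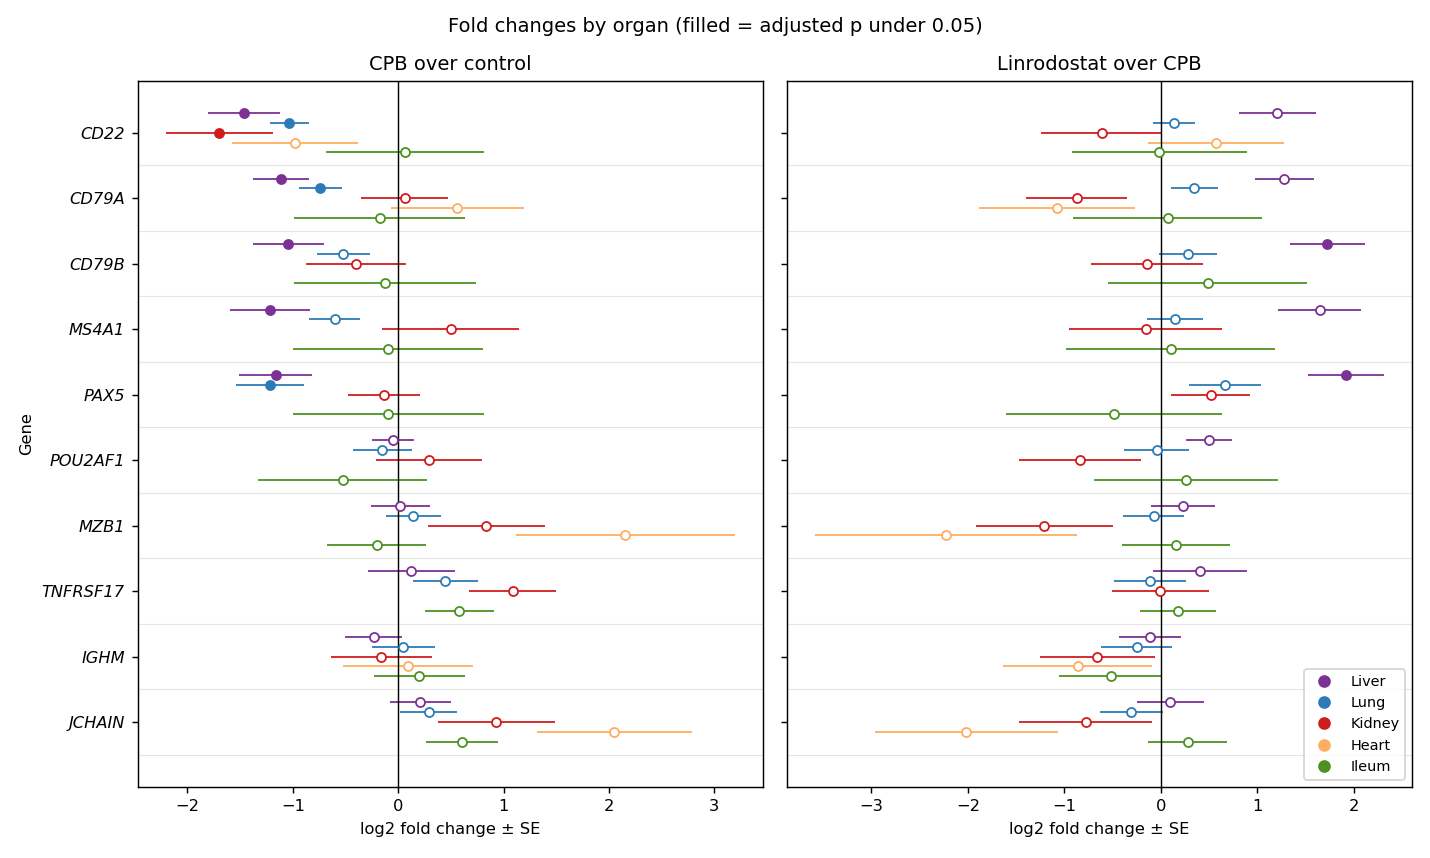
Log2 fold changes ± SE of the 10 genes by organ, CPB over control on the left and linrodostat over CPB on the right; filled points have an adjusted p under 0.05, and genes not tested in heart have no heart point. On the left CD22 is filled in liver, lung and kidney, and on the right PAX5 and CD79B are filled in liver only.

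Calls in 1 organ and not in another do not show that the organs differ, so the difference of the CPB effect was tested over all 95 libraries. The main fit had no block for the animal and used 1 spread per gene for all organs. For CD22 the standard deviation of log2 CPM was 1.72 in ileum and 0.349 in lung. A difference that was not called in this fit does not show that the organs are alike. An F test over the 5 organs called 0 of 10 members, with 12.9% of 20321 genes called; MS4A1 and MZB1 had an unadjusted p of 0.037 and 0.049. For liver minus lung the difference in CD22 was -0.44 ± 0.73, for liver minus kidney 0.25 ± 0.75 and for liver minus ileum -1.56 ± 0.74 (adjusted p = 0.84, 0.94 and 0.19), and 0 members passed in any of these 3 (3.91, 3.52 and 7.41% of all genes). In liver minus heart 1 member passed, MS4A1 at -4.16 ± 1.35 (adjusted p = 0.047), with 6.22% of all genes called and 2.67% called lower. The heart of CPB animal 11 held 55 counts of MS4A1, where 4 of the other 6 CPB hearts and 5 of 8 control hearts had 0. Without that animal the difference was -1.17 (adjusted p = 0.85). With the animal as a block in the paired fit it was -3.52 (adjusted p = 0.15). The call was also lost without any 1 of 10 further animals. The difference of the linrodostat effect between organs called 0 of 10 members in the F test, with 0.187% of all genes called. It called 0 members in liver minus heart (0.0738% of all genes), ileum (0.103%), kidney (0.0295%) and lung (0.0492%), although 6 members had an unadjusted p under 0.05 in liver minus heart.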

How the data were processed

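The gene table is deposited as estimated counts (expected counts), one column per library, and the values were rounded to whole numbers here. Reads were paired-end from polyA RNA, per the labels' protocols. Among the tools listed in the submitters' processing notes are STAR and Salmon, with Trim Galore and cutadapt for trimming, and the genome build is Sscrofa11.1. The versions, the annotation and the program that made the counts are not given in the sources used here. Depth was 20.0 to 53.6 times 1000000 counts per library, which limits genes with few reads most.

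Arms were compared within each organ with edgeR 4.0.16 (R 4.3.3): its expression filter by group, TMM scaling, the robust quasi-likelihood test, and Benjamini-Hochberg adjustment over all genes tested, with a threshold of 0.05. Each SE is the log2 fold change divided by the square root of the F statistic. CPM values use each organ's TMM scaling, and log2 values in spread and likeness use a prior count of 2. Organs were compared, and organ-by-arm terms tested, over the libraries of all organs together. DESeq2 1.42.0, limma-voom (limma 3.58.1), other scaling, no filter, sex, 2-arm fits, a fit with the animal as a block and leaving out each animal were alternatives. Same-numbered libraries come from the same animal, per the labels. The median correlation of their deviations from group means was 0.134 to 0.30 over 10 organ pairs and 13637 genes.

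The members and gene lists were chosen with earlier results of these data known. Every member is named in every organ; of other lists, up to 3 called genes of largest fold change and 2 not called of highest level are named. Where 5 or fewer genes of a list were called, further ones are named, chosen after their values were seen. The result for a further gene that this rule picks is not reported here. The scripts were tested on simulated counts.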

Additional observations from a re-analysis of the deposited data

Results flagged for a closer look

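In groups of 4 to 10 libraries, a library was singled out when its gap to the nearest other, relative to the group's range, passed the 95% critical value of Dixon's test. Of 148 groups tested 21 were singled out. Chance gives about 1 in 20 for independent groups of normally distributed values. The groups here share libraries and genes that move together, and some hold many zeros, so the 21 cannot be set against that rate.

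The heart of CPB animal 11 accounted for 8 of them. It had 3.76 CPM of CD79A (next CPB heart 0.830), 2.31 CPM of CD79B (next 0.194), 2.09 CPM of MS4A1 (next 0.242), 124 CPM of IGHM (next 24.5), 93.3 CPM of JCHAIN (next 7.32), 18.9 CPM of MZB1 (next 1.32), 4.29 CPM of POU2AF1 (next 0.354) and 0.683 CPM of TNFRSF17 (next 0). CD22, the exception among the receptor genes, was at 2.77 CPM in that heart and 2.10 CPM in the next. The kidney of the same animal accounted for 6: 4.72 CPM of CD79A (next CPB kidney 1.06), 1.65 CPM of CD79B (next 0.574), 1.24 CPM of MS4A1 (next 0.467), 322 CPM of IGHM (next 156), 164 CPM of JCHAIN (next 46.1) and 13.2 CPM of MZB1 (next 5.87).

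The liver of linrodostat animal 18 had 5.94 CPM of CD22 (next linrodostat liver 2.42), 5.17 CPM of CD79B (next 2.64), 6.29 CPM of PAX5 (next 2.34) and 6.75 CPM of MZB1 (next 2.39). In control liver, animal 1 had 6.20 CPM of CD22 (next 4.31). In CPB lung, animal 6 had 12.6 CPM of PAX5 (next 5.62). In CPB ileum, animal 2 was the low one, with 2.89 CPM of TNFRSF17 (next 5.46).

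For MS4A1 the test of the difference in CPB effect between liver and heart, fitted without the animal as a block, gave an adjusted p of 0.0473 in edgeR. It was 0.15 with the animal as a block and 0.85 without CPB animal 11, and MS4A1 did not pass the low-count filter within heart. In the fit without the block 0 of the 10 members were called for liver minus ileum, kidney or lung.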

How the results depend on the processing

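Called members in CPB against control were 5 in liver (4 to 5 when each animal was left out in turn) and 0 in ileum and heart under every alternative run. In lung the 3 calls became 1 with only the 2 arms fitted or without the lungs of CPB animals 19 and 25 (this last chosen after seeing the data), and 1 to 4 leaving out each animal. In kidney the 1 call became 2 with DESeq2, limma-voom or sex as a covariate, where TNFRSF17 joined CD22, and 0 to 2 leaving out each animal. For linrodostat against CPB in liver the 2 calls became 4 with DESeq2, 1 with limma-voom or with only the 2 arms, 0 with the gut transcript covariate, which was chosen after seeing the data, and 0 to 3 leaving out each animal. For linrodostat against control, kidney went from 1 to 2 with sex and 0 to 2 leaving out each animal, liver from 0 to between 0 and 1, and lung from 1 to 0 with only the 2 arms and 0 to 1 leaving out each animal. With the animal as a replicate block, liver minus heart went from 1 called member to 0, and it was 0 without the filter and with limma-voom, and 0 to 2 leaving out each animal; the block moved the other counts of called members by less than 1.5 times. Kidney against heart in controls gave 3 to 5. No value changed sign among the called results. The cause of these shifts was not tested. Low counts limit liver MS4A1 and CD79B, at 7 counts in the lowest liver, and most members in heart.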
